A study of Mus musculus with 4 samples.

Results

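The genes described here are 43 genes of the endoplasmic reticulum (ER): the sensors of the unfolded protein response, the chaperones and disulfide isomerases that fold proteins in the ER, the factors of ER-associated degradation, and the channel through which proteins enter. They were taken as a list of gene symbols grouped by function, and all 43 were found among the 25261 genes of the series. By function, 4 were stress sensors or the transcription factor Xbp1, 13 were chaperones and co-chaperones, 7 were disulfide isomerases and oxidases, 12 belonged to ER-associated degradation and 7 to the translocon. Bulk RNA sequencing was done on adult neural stem cells of C57BL/6 mice aged 8 weeks, 2 libraries in each of 2 groups. The ctrl cells had been infected with a lentivirus for a scramble short hairpin RNA, and the shOGT cells with a lentivirus for a short hairpin RNA against mouse Ogt, so that infection with a lentivirus was common to both groups. Ogt encodes O-GlcNAc transferase, the enzyme that adds single sugar residues to proteins of the nucleus and cytoplasm. The labels give neither a number of animals nor a time after infection, and whether cells were sorted for infection is not given in the sources used here. Whether replicates came from separate cultures is not stated either, so the p-values reflect differences among these 4 libraries alone, and these may be technical.

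Proteins bound for the cell surface, for secretion or for the organelles of the secretory route enter the ER through the Sec61 channel and fold there with the help of chaperones and of enzymes that form disulfide bonds. Proteins that fail to fold are carried back to the cytosol and degraded by the proteasome. When unfolded proteins accumulate, the sensors IRE1 (encoded by Ern1), ATF6 and PERK (encoded by Eif2ak3) start the unfolded protein response, which raises transcription of many chaperone and degradation genes and lowers protein synthesis. Neural stem cells make large numbers of surface receptors and matrix proteins, all of which pass through this route.

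The deposited value of a gene is a signal proportional to the reads assigned to it, and the libraries held an implied 15697508 to 17753976 reads. Ogt itself was at 4112 and 4138 in ctrl and 3379 and 3516 in shOGT, with a log2 fold change of -0.26 ± 0.04 (SE) and an adjusted p of 0.00876 by limma, so that Ogt was lower in both libraries labelled shOGT. The 9 neural stem cell markers used were all detected and summed to 91525 and 94542 in ctrl and to 87306 and 88707 in shOGT, with 1 of them lower (Fabp7). Without Fabp7 the sum was 61982 and 64090 in ctrl and 66889.8 and 66273 in shOGT, and 6 of the 9 had a positive log2 fold change. The microglial markers found were under 10 in every library. Of 5 astrocyte markers 1 was lower in shOGT (Aldh1l1), and the 5 summed to 60508 and 61287 in ctrl and to 55435 and 59819 in shOGT. Of 9 oligodendrocyte lineage markers 7 were tested and 2 were lower (Pdgfra and Gpr17). The 9 summed to 39416 and 40139 in ctrl and to 40528 and 40028 in shOGT; most of this was Olig1, and without it the sum was 3067 and 2987 in ctrl and 2680 and 2274 in shOGT. Neuron, endothelial and mural markers had no called gene, with sums of at most 544 in any library. The part of these differences in the results below was not tested, and in bulk RNA fewer cells of a type cannot be told apart from less RNA per cell.

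Of the 43 ER genes, 11 were lower in shOGT than in ctrl and 0 were higher. The 11 were the chaperones Hspa5, Hsp90b1, Hyou1, Sdf2l1, Dnajc10 and Uggt1, the disulfide isomerases Pdia3, Pdia6 and P4hb, and the degradation genes Edem1 and Sel1l. A gene was called with a Benjamini-Hochberg adjusted p under 0.05 by limma over all 21829 genes tested. All 43 ER genes passed the filter on low values. Across all genes tested, 633 genes (2.9%) were lower and 427 (1.96%) were higher; with the libraries rescaled to equal totals the split was 585 lower and 593 higher, and the ER genes called lower numbered 11 again. The share of ER genes called lower was 25.6%. At an unadjusted p under 0.05, 17 of the 43 were lower and 0 higher. Over all 21829 genes tested, 2245 were lower and 1969 higher at that level.

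The log2 fold changes of the 11 genes lay between -0.53 and -0.17. The median log2 fold change of the 43 genes was -0.11, where the median of all genes tested was 0.001. Fold changes are differences of log2(value + 1) between group means, shOGT minus ctrl, and ± on them is the standard error. In 38 of the 43 the sign was negative. Both shOGT values lay below both ctrl values for 27 ER genes, where 24.3% of all genes tested did so. The opposite order held for 3 ER genes, Syvn1, Derl1 and Sec62, where it held for 25.0% of all genes, and the groups overlapped for 13. In the plot of values by library both shOGT marks lie left of both ctrl marks for 10 of 13 chaperones, 6 of 7 disulfide isomerases and oxidases, 3 of 4 sensors, 5 of 12 degradation genes and 3 of 7 translocon genes. Among all genes with a mean of at least 1000, a limit set after the values had been seen, 36.6% showed this order. That limit was reached by 5 of the 12 degradation genes and 5 of the 7 translocon genes. The counts of these 2 groups were near that share. No ER gene was called when any 1 of the 4 libraries was left out: the adjusted p of the 11 genes then lay between 0.286 and 0.388, no gene of the whole table was called, and 13 to 18 ER genes were lower at an unadjusted p under 0.05. The number called was also 0 with quantile normalization, without the filter on low values and without a variance trend (13, 15 and 9 lower at an unadjusted p under 0.05), and it was 17 with a minimum value of 10.

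**Figure D1:**
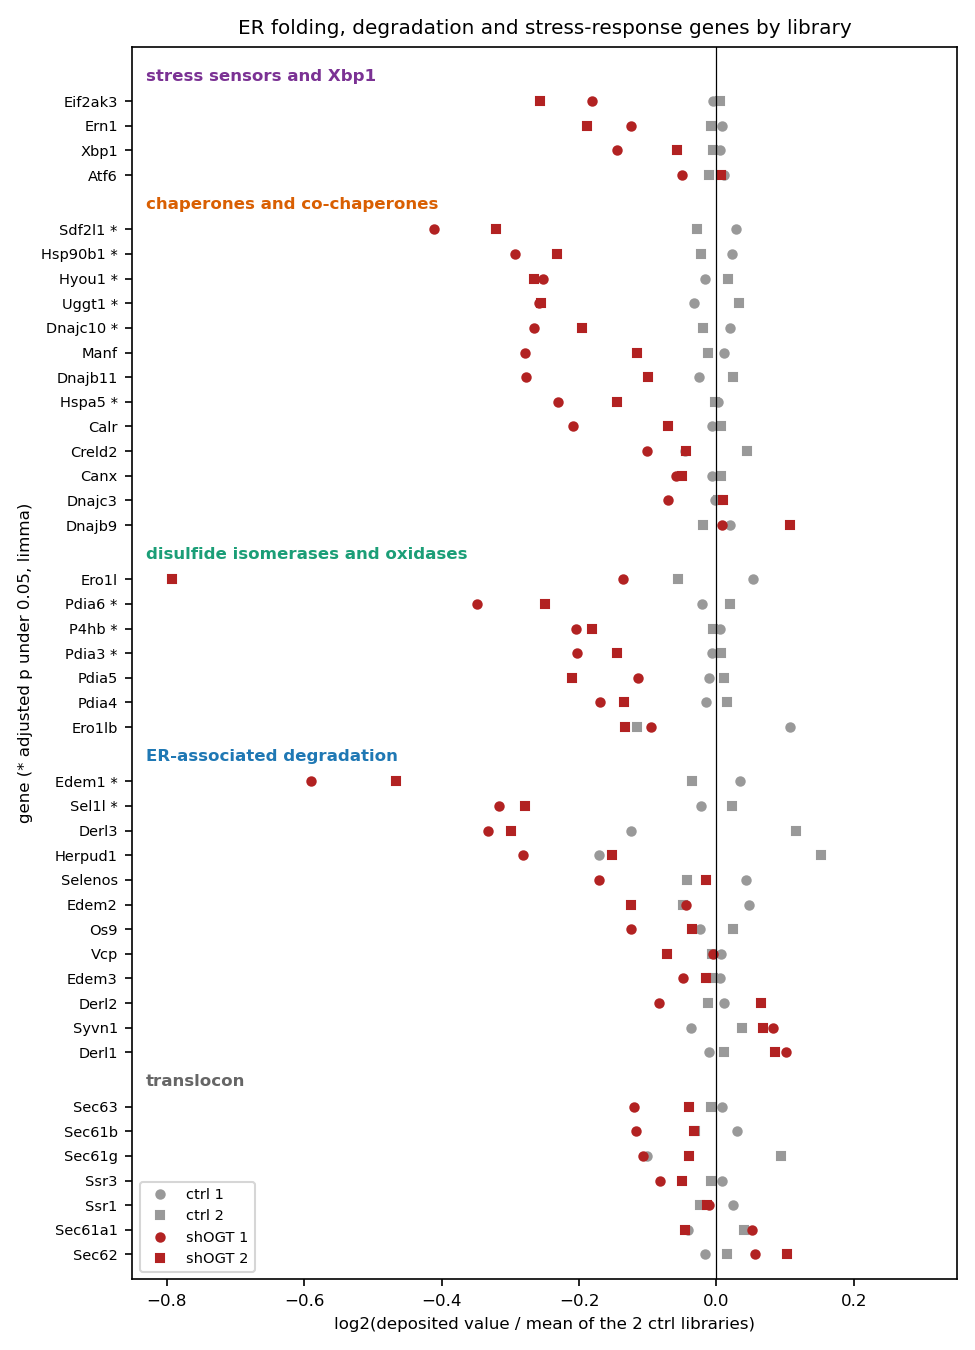
The value of each of the 43 ER genes in each library, as the log2 ratio to the mean of the 2 ctrl libraries (x axis), with genes grouped by function and ordered by their mean change (y axis). Grey marks are the ctrl libraries, red marks the shOGT libraries, circles replicate 1 and squares replicate 2. An asterisk marks the 11 genes called lower, whose red marks all lie to the left of their grey marks. Choosing genes by their adjusted p favours this order.

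Genes of the unfolded protein response often carry a promoter element, the ER stress element (ERSE), which ATF6 and XBP1 bind together with the factor NF-Y. It reads CCAAT, then 9 bases of any kind, then CCACG, and it was searched on both strands from 250 bases before to 50 bases after the transcript starts given by RefSeq on GRCm38.p6. Windows were found for 38 of the 43 genes, 39 windows in all; no window was found for Atf6, Derl1, Hyou1, Manf and Sec61a1. The element was present in 10 of the 39 windows (25.6%) and in 39 of all 32851 windows of the table (0.119%), the ER genes included. Because the list holds known genes of this response, a larger share among them is no separate result. Sequences of called genes are shown first because they show where the element lies, or that these letters were not found. In each sequence, read 5′ to 3′ along the strand of the gene, capitals mark the 2 ends of the element (CCAAT and CCACG, or CGTGG and ATTGG where it lies on the opposite strand). The first 4 sequences are the 250 bases before the start of called genes: Hspa5 (chr2:34771840-34772089, plus strand), Hsp90b1 (chr10:86705445-86705694, minus strand), Edem1 (chr6:108828391-108828640, plus strand) and Sdf2l1 (chr16:17132384-17132633, minus strand).
Hspa5: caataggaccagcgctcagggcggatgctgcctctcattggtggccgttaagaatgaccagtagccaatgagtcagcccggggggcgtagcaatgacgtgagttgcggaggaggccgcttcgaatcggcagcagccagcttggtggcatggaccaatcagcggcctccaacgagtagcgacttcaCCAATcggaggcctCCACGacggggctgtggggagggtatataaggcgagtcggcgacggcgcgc
Hsp90b1: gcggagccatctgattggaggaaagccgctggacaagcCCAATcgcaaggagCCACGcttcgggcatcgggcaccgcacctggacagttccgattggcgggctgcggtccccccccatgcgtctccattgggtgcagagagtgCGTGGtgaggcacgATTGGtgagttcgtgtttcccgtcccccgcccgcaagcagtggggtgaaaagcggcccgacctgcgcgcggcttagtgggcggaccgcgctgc
Edem1: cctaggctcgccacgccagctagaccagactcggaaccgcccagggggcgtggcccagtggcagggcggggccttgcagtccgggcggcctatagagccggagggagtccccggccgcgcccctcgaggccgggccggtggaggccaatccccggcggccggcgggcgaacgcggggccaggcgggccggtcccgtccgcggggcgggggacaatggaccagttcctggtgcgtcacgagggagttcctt
Sdf2l1: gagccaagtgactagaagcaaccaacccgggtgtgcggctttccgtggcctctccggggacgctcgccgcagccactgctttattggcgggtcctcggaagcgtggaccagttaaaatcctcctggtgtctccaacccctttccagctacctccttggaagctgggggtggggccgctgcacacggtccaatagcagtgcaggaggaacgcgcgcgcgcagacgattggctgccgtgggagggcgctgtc

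Hspa5 carried 1 copy, 46 bases before the transcript start, and Hsp90b1 carried 2 copies, 193 and 88 bases before it, the nearer one on the opposite strand. The windows of Edem1 and Sdf2l1, which had the largest falls among the called genes, held no exact copy. Stretches of 49 bases around the element are shown for a called isomerase, Pdia6, and for 5 genes that carry the element and were not called. They lie at chr12:17266476-17266524 (Pdia6, plus), chr8:84847060-84847108 (Calr, minus), chr11:50325785-50325833 (Canx, minus), chr15:88819505-88819553 (Creld2, plus), chr14:118937812-118937860 (Dnajc3, plus) and chr19:6046517-6046565 (Syvn1, plus).
Pdia6: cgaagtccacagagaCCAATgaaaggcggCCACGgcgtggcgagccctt
Calr: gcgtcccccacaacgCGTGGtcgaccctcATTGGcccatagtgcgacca
Canx: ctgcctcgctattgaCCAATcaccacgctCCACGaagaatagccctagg
Creld2: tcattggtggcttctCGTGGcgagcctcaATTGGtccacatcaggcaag
Dnajc3: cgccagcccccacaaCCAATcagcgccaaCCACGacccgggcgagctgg
Syvn1: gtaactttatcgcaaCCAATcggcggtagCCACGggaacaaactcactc

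The 10 ER genes with an exact ERSE were the 8 shown with capitals, together with Derl3 and Ero1lb. Of the 10, 3 were lower (Hspa5, Hsp90b1 and Pdia6), with a median log2 fold change of -0.12. Of the 28 ER genes with a window and no exact copy, 7 were lower, with a median of -0.13. The order of these medians depended on how strictly the element was defined. With any 2 last bases (CCAAT, 9 bases, CCANN; 1.09% of all windows), 17 ER genes carried it and 5 of them were lower, with a median of -0.14. Of the 21 without it 5 were lower, with a median of -0.10. Neither difference was tested. A shorter element of the same response, ERSE-II (ATTGG, 1 base, CCACG, which shares its CCACG end with the ERSE), was found in Dnajb11 and Herpud1 and in 0.0365% of all windows. The element UPRE (TGACGTGG, which contains CGTGG, the opposite-strand form of CCACG) was found in Vcp and in 0.676% of all windows. None of these 3 was called lower. A match is a run of letters in a window and does not show that a factor binds there.

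None of the 4 genes of the stress sensor group was called, although 1 of them had an unadjusted p under 0.05, and the median log2 fold change was -0.13. The gene with that p was Eif2ak3, which encodes PERK, the kinase that phosphorylates the initiation factor eIF2 alpha. It was at 897 and 903 in ctrl and 793 and 753 in shOGT, with a log2 fold change of -0.22 ± 0.06 (95% interval -0.35 to -0.08) and an adjusted p of 0.0725. Both shOGT values lay below both ctrl values, and the ctrl libraries differed little from each other. Ern1, which encodes the kinase and ribonuclease IRE1 that splices the Xbp1 transcript, was at 310.2 and 307 in ctrl and 283 and 271 in shOGT (log2 fold change -0.16, 95% interval -0.36 to 0.04, adjusted p 0.384). Its groups did not overlap either, but the interval included 0. Xbp1, the transcription factor made from the spliced transcript, was at 594 and 590.2 in ctrl and 536 and 569 in shOGT (log2 fold change -0.10, interval -0.26 to 0.05, adjusted p 0.475). Values per gene do not separate spliced from unspliced Xbp1. Atf6 encodes a membrane-bound transcription factor that is cut free in the Golgi. It was at 1119.9 and 1103 in ctrl and 1074 and 1117 in shOGT, so that shOGT 2 lay between the ctrl libraries while shOGT 1 was the lowest of the 4. The log2 fold change was -0.02 (95% interval -0.14 to 0.10, adjusted p 0.885), and it was 0.01 without shOGT 1.

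Among the 13 chaperones and co-chaperones, 6 (46.2%) were lower and 0 higher, where 2.9% of all genes tested were lower. Of genes with a mean of at least 1000, as 10 of the 13 were, 8.56% were lower. At an unadjusted p under 0.05, 9 of the 13 were lower and 0 higher, against 2245 and 1969 of all 21829 genes. The median log2 fold change of the 13 was -0.19, and it was -0.12 without shOGT 1 and -0.25 without shOGT 2. Hspa5 encodes BiP, the main Hsp70 chaperone of the ER, which also holds the sensors inactive. The deposited values of Hspa5 were 11637 and 11599 in ctrl and 9903 and 10507 in shOGT. The ctrl libraries were nearly equal and both shOGT libraries lay below them. The mean fell by 12.2%, from 11618 ± 26.9 to 10205 ± 427 (SD, n = 2), a log2 fold change of -0.19 ± 0.04 with an adjusted p of 0.0228; the gene lies at chr2:34771970-34777547 on GRCm38. Hsp90b1 encodes GRP94, the Hsp90 chaperone of the ER, which folds integrins and Toll-like receptors among others. Its values were 10659.8 and 10332 in ctrl and 8563 and 8940.2 in shOGT, with the groups well apart. The mean fell by 16.6%, a log2 fold change of -0.26 ± 0.04 with an adjusted p of 0.00538 (chr10:86690209-86705509). Exons of Hsp90b1 overlap those of 1810014B01Rik, which was at 137 and 140 in ctrl and 120 and 123 in shOGT, and the sources used here do not state whether counting used strand.

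Hyou1 encodes GRP170, which exchanges the nucleotide of BiP and holds unfolded chains itself. It was at 3106 and 3179 in ctrl and 2638 and 2615 in shOGT (chr9:44379490-44392369). Values within each group were close, and the log2 fold change was -0.26 ± 0.04 with an adjusted p of 0.00959. Dnajc10 encodes ERdj5, a J-domain protein that passes clients to BiP and reduces their disulfide bonds before they are degraded. It was at 2876 and 2797 in ctrl and 2359 and 2476 in shOGT (chr2:80315466-80354043), with both shOGT values below both ctrl values. The log2 fold change was -0.23 ± 0.05 and the adjusted p 0.0219. Sdf2l1, a partner of the J-domain protein ERdj3 in complexes with BiP, was at 454 and 436 in ctrl and 335 and 356 in shOGT (chr16:17130138-17132383). The mean fell by 22.4%, a log2 fold change of -0.36 ± 0.08 (adjusted p 0.0346). Here too the groups did not overlap. Uggt1 encodes the folding sensor of the calnexin cycle, a glucosyltransferase that marks glycoproteins which are not yet folded for another round. It was at 3273 and 3424 in ctrl and 2800.4 and 2806 in shOGT (chr1:36140027-36244720), with the shOGT libraries nearly equal. The log2 fold change was -0.26 ± 0.04, with an adjusted p of 0.0113.

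The lectin chaperones of that cycle, calreticulin and calnexin, were not called. Calr was at 13405 and 13518 in ctrl and 11644 and 12819 in shOGT, with the lower shOGT value in shOGT 1, and the log2 fold change was -0.14 (95% interval -0.24 to -0.04, adjusted p 0.118). Canx was at 13455 and 13586 in ctrl and 12980.5 and 13059.6 in shOGT, where the groups did not overlap but the log2 fold change was only -0.05 (interval -0.12 to 0.01, adjusted p 0.382). The sign of Canx turned under quantile normalization, to 0.003. Dnajb11 encodes ERdj3, the J-domain partner of BiP for newly made chains. It was at 2167 and 2243 in ctrl and 1820.2 and 2058 in shOGT, with a log2 fold change of -0.19 (interval -0.32 to -0.05, adjusted p 0.123). Manf encodes a secreted neurotrophic factor that is held in the ER by BiP. It was at 3232 and 3180.2 in ctrl and 2643 and 2960.0 in shOGT, with a log2 fold change of -0.20 (interval -0.32 to -0.07, adjusted p 0.0779), which was -0.12 without shOGT 1. Exons of Manf overlap those of Dcaf1, at 797 and 788 in ctrl and 919.7 and 831 in shOGT, and of Rbm15b, at 1649 and 1582 in ctrl and 1763 and 1694 in shOGT, neither of them called. In Calr, Dnajb11 and Manf the groups did not overlap and shOGT 2 lay nearer to ctrl than shOGT 1. In 3 chaperone genes the groups overlapped. Dnajb9 encodes ERdj4, a J-domain protein that recruits BiP to IRE1, and was at 628 and 611 in ctrl and 623 and 667 in shOGT. Dnajc3 encodes p58IPK, a J-domain protein that also inhibits PERK, and was at 2379 and 2388 in ctrl and 2269.9 and 2399 in shOGT. Creld2, a gene induced by ER stress whose product resembles an isomerase, was at 884 and 941 in ctrl and 851 and 885 in shOGT. Their log2 fold changes were 0.06, -0.03 and -0.07, with adjusted p-values of 0.706, 0.783 and 0.582. The chaperones thus ranged from a fall in Sdf2l1 to no detectable difference in Dnajb9 and Dnajc3, the interval of Dnajb9 being -0.10 to 0.21 and that of Dnajc3 -0.13 to 0.07.

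Among the 7 disulfide isomerases and oxidases, 3 (42.9%) were lower and 0 higher, where 2.9% of all genes tested were lower. Of genes with a mean of at least 1000, as 5 of the 7 were, 8.56% were lower. At an unadjusted p under 0.05, 5 of the 7 were lower and 0 higher, against 2245 and 1969 of all 21829 genes. The median log2 fold change of the 7 was -0.17, and the sign was negative in all 7. P4hb encodes protein disulfide isomerase itself, which forms and rearranges disulfide bonds and is also the beta subunit of prolyl 4-hydroxylase. Its values were 7877 and 7829.6 in ctrl and 6816 and 6929 in shOGT (chr11:120560298-120573253), with little spread in either group. Its mean fell by 12.5%, a log2 fold change of -0.19 ± 0.03 with an adjusted p of 0.0142. Pdia3 encodes ERp57, the isomerase that calnexin and calreticulin bring to glycoproteins. It was at 9592 and 9687 in ctrl and 8372 and 8721 in shOGT (chr2:121413775-121438687), with a log2 fold change of -0.17 ± 0.04 and an adjusted p of 0.0248. Its exons overlap those of Catsper2, which was at 170 and 156 in ctrl and 123 and 156 in shOGT. Pdia6 encodes an isomerase that binds BiP and acts on IRE1 and PERK. It was at 6463 and 6647 in ctrl and 5147 and 5514 in shOGT (chr12:17266545-17284770), with the groups far apart compared with their spread. The mean fell by 18.7%, a log2 fold change of -0.30 ± 0.04 with an adjusted p of 0.00599.

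Pdia4 and Pdia5, further isomerases of the family, were not called. Pdia4 was at 4195 and 4285 in ctrl and 3768 and 3864 in shOGT, with a log2 fold change of -0.15 (95% interval -0.24 to -0.06, adjusted p 0.0586). Pdia5 was at 392 and 398 in ctrl and 365 and 341 in shOGT, with a log2 fold change of -0.16 (interval -0.35 to 0.02, adjusted p 0.318). The groups did not overlap in either gene, and the interval of Pdia4 excluded 0 while that of Pdia5 did not. Ero1l and Ero1lb encode the oxidases that recharge protein disulfide isomerase. Ero1l was at 1252 and 1161 in ctrl and 1097 and 697 in shOGT. The groups did not overlap, but the shOGT libraries differed from each other 1.58-fold, where the ratio was at most 1.13 in every other ER gene. Its log2 fold change was -0.46 ± 0.16 with an adjusted p of 0.152. It was -0.14 without shOGT 2 and -0.79 without shOGT 1, so that its size depended on which shOGT library was used. Ero1lb was at 258 and 221 in ctrl and 224 and 219 in shOGT, with overlapping groups and an adjusted p of 0.647.

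Among the 12 genes of ER-associated degradation, 2 (16.7%) were lower and 0 higher, where 2.9% of all genes tested were lower. Of genes with a mean of at least 1000, as 5 of the 12 were, 8.56% were lower. At an unadjusted p under 0.05 the numbers were again 2 lower and 0 higher, against 2245 and 1969 of all 21829 genes. The median log2 fold change of the 12, -0.08, became -0.04 when ctrl 1 was left out and -0.05 when either ctrl 2 or shOGT 1 was left out. Edem1 encodes a protein that promotes the trimming of mannose from misfolded glycoproteins and hands them to degradation. Its values were 991 and 944 in ctrl and 643 and 700.4 in shOGT (chr6:108828641-108859356), and it had the largest fall of the 43 genes. The mean of Edem1 fell by 30.6%, from 968 ± 33.2 to 672 ± 40.4 (SD, n = 2), a log2 fold change of -0.53 ± 0.07 (95% interval -0.68 to -0.38) with an adjusted p of 0.00347. Over the 4 sets of 3 libraries the log2 fold change lay between -0.59 and -0.47. Its paralogs were not called. Edem2 was at 656 and 614 in ctrl and 616 and 583 in shOGT, with overlapping groups. Edem3 was at 2115 and 2100.0 in ctrl and 2037 and 2086 in shOGT, with groups that were close but did not overlap. Their log2 fold changes were -0.08 (interval -0.24 to 0.07) and -0.03 (interval -0.13 to 0.07), with adjusted p-values of 0.571 and 0.761. Both intervals lay above that of Edem1, but the difference between paralogs was not tested.

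Sel1l encodes the adaptor of the HRD1 ubiquitin ligase, the main membrane complex of ER-associated degradation. It was at 2732 and 2817 in ctrl and 2227 and 2286 in shOGT (chr12:91806043-91849157), with both shOGT values well below both ctrl values. Its mean fell by 18.7%, a log2 fold change of -0.30 ± 0.04 with an adjusted p of 0.00683. Syvn1, which encodes the ligase HRD1 itself, was at 561 and 591 in ctrl and 610.3 and 604 in shOGT, with both shOGT values above both ctrl values. Its log2 fold change was 0.08 (95% interval -0.08 to 0.23, adjusted p 0.598), so that adaptor and ligase had opposite signs. Exons of Syvn1 overlap those of Mrpl49, which was at 874 and 888 in ctrl and 773 and 813 in shOGT. The derlins, membrane proteins of the exit channel, were not called. Derl1 was at 1473 and 1496 in ctrl and 1592 and 1574 in shOGT (log2 fold change 0.09, interval -0.01 to 0.20, adjusted p 0.329), with both shOGT values above both ctrl values. Derl2 was at 929 and 915 in ctrl and 869.7 and 964 in shOGT (log2 fold change -0.01, adjusted p 0.961). Derl3 was almost absent, at 15.96 and 18.8 in ctrl and 13.8 and 14.1 in shOGT, and its interval of -1.09 to 0.51 was the widest of the 43 genes. The sign of Derl2 turned with equal totals or quantile normalization, while that of Derl1 did not. Exons of Derl2 overlap those of Mis12, at 827 and 816 in ctrl and 824 and 758 in shOGT.

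The other 4 degradation genes were not called. Os9 encodes a lectin that brings trimmed glycoproteins to the HRD1 complex. It was at 2123 and 2194 in ctrl and 1979.7 and 2106 in shOGT, with a log2 fold change of -0.08 (adjusted p 0.424) and groups that did not overlap. Herpud1, a stress-induced scaffold of the same complex, was at 167 and 208 in ctrl and 154 and 169 in shOGT (log2 fold change -0.21, adjusted p 0.463), and the spread within ctrl was wider than the difference between the means. Selenos encodes a membrane protein that recruits the ATPase p97. Its values were 663 and 625 in ctrl and 572 and 637 in shOGT (log2 fold change -0.09, adjusted p 0.563), with shOGT 2 inside the ctrl range. Vcp encodes p97, which pulls ubiquitinated proteins out of the membrane and has many roles outside the ER. It was at 8169.6 and 8095 in ctrl and 8106 and 7734 in shOGT (log2 fold change -0.04, interval -0.12 to 0.04, adjusted p 0.629), and its sign turned under quantile normalization.

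None of the 7 translocon genes was called in either direction, and none had an unadjusted p under 0.05. Their median log2 fold change was -0.07, with a range from -0.08 to 0.08 and 95% intervals that together ran from -0.23 to 0.18. The median was -0.01 with quantile normalization, -0.04 without ctrl 2 and -0.04 without shOGT 1. Sec61a1, Sec61b and Sec61g encode the 3 subunits of the protein-conducting channel. Sec61a1, the pore subunit, was at 2989 and 3162 in ctrl and 3189 and 2979 in shOGT, with the shOGT libraries on either side of the ctrl range (log2 fold change 0.004, adjusted p 0.988). Sec61b was at 996 and 955 in ctrl and 899 and 954 in shOGT (log2 fold change -0.07, adjusted p 0.554). Sec61g was at 921 and 1055 in ctrl and 918 and 962 in shOGT (log2 fold change -0.07, adjusted p 0.654), with the ctrl libraries further apart than the shOGT libraries. Sec62 and Sec63 encode membrane proteins that help chains enter after translation, Sec63 by bringing BiP to the channel. Sec62 was at 2645 and 2704 in ctrl and 2779 and 2872 in shOGT (log2 fold change 0.08, adjusted p 0.355). Sec63 was at 2557 and 2529.5 in ctrl and 2339 and 2474 in shOGT (log2 fold change -0.08, adjusted p 0.384). Their groups did not overlap and lay in opposite orders. Ssr1 and Ssr3 encode subunits of the translocon-associated protein complex. Ssr1 was at 4937 and 4773 in ctrl and 4817 and 4809 in shOGT (log2 fold change -0.01, adjusted p 0.908), with both shOGT values inside the ctrl range. Ssr3 was at 8294 and 8203 in ctrl and 7790.0 and 7968 in shOGT (log2 fold change -0.07, adjusted p 0.327), with groups that did not overlap. The interval of Ssr1, -0.10 to 0.07, did not include the log2 fold change of Pdia6 (-0.30), and neither did that of Ssr3, -0.14 to 0.01. These intervals rest on 2 libraries a group and on the variance trend, and Pdia6 is a gene that was called for its fall.

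Each gene group was also measured as a share of the library. Together the 43 genes made up 0.860% and 0.857% of the summed values in ctrl and 0.779% and 0.801% in shOGT, so that both shOGT shares lay below both ctrl shares. The relative change of the mean share was -8.01%. An exact permutation test of 2 against 2 libraries, 2-sided, gave p = 0.333, the smallest p this design allows. The share of the chaperones had a relative change of -9.52%, at 0.404% and 0.402% in ctrl and 0.356% and 0.374% in shOGT. That of the disulfide isomerases and oxidases was -12.6%, at 0.178% in both ctrl libraries and 0.155% and 0.157% in shOGT. For degradation genes, sensors and the translocon it was -4.57%, -6.26% and -0.939%. Each share is a sum in which the genes of highest value weigh most. The sums include the called genes, so the shares are no separate measure of the groups. Differences between these groups of genes were not tested.

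**Figure D2:**
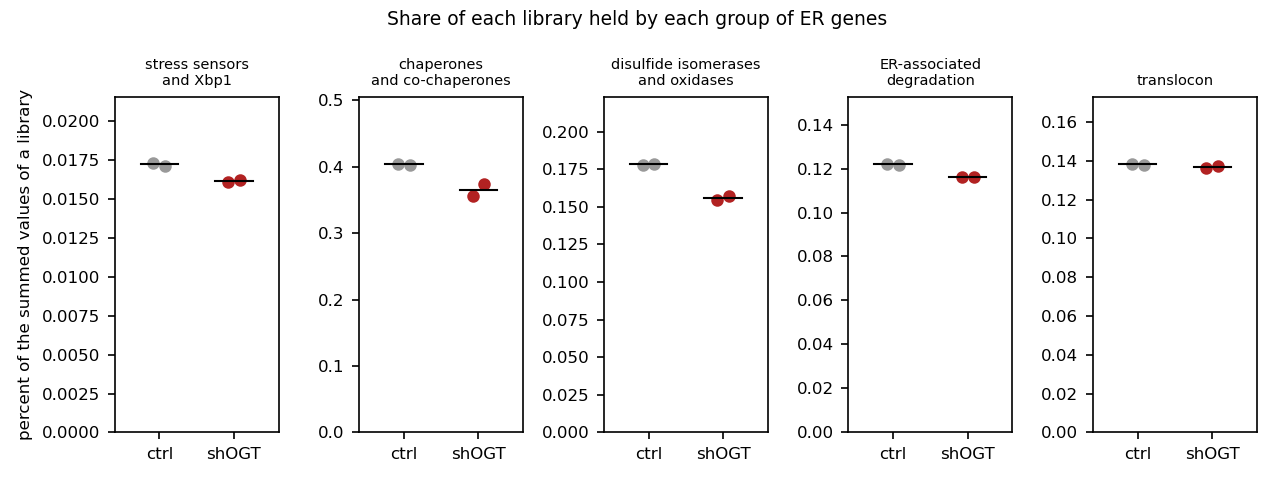
Percent of the summed deposited values of a library (y axis, a separate scale from 0 for each panel) held by each of the 5 groups of ER genes in the 2 ctrl and 2 shOGT libraries. Points are libraries and lines are means of 2; both shOGT points lie below both ctrl points in each panel, with the largest relative change in the disulfide isomerases (-12.6%) and the smallest in the translocon (-0.939%).

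The ER genes are abundant, and calls were more frequent among abundant genes. Of the 4262 genes with a mean value of at least 1000, a limit set after the values had been seen, 365 (8.56%) were lower. Of the 26 ER genes above that limit 9 were lower (34.6%), and 19 had both shOGT values below both ctrl values, where 36.6% of the 4262 genes did. At an unadjusted p under 0.05, 14 of the 26 were lower and 0 higher, against 945 and 725 of the 4262. The called ER genes below the limit were Edem1 and Sdf2l1. Levels of different genes can be compared only per length, here as the deposited value per kilobase of exon. The length was that of all annotated exons of a gene joined, not of the transcript expressed, so ranks depend in part on the annotation. On that scale Calr was the highest in ctrl, with a mean of 4674, followed by Pdia3 at 3071, Canx at 2881, Hspa5 at 2747, P4hb at 2745 and Hsp90b1 at 2603. Hspa5 and P4hb could not be told apart, since their values per kilobase in the ctrl libraries overlapped (2752 and 2743 for Hspa5, 2753 and 2737 for P4hb). Of these 6, all but Calr and Canx were called lower. Xbp1 was at 182 per kilobase, Eif2ak3 at 149, Atf6 at 120 and Ern1 at 37.7, so that the sensors ranked from 33 to 41 of 43, and Derl3 was the lowest at 8.73.

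**Figure D3:**
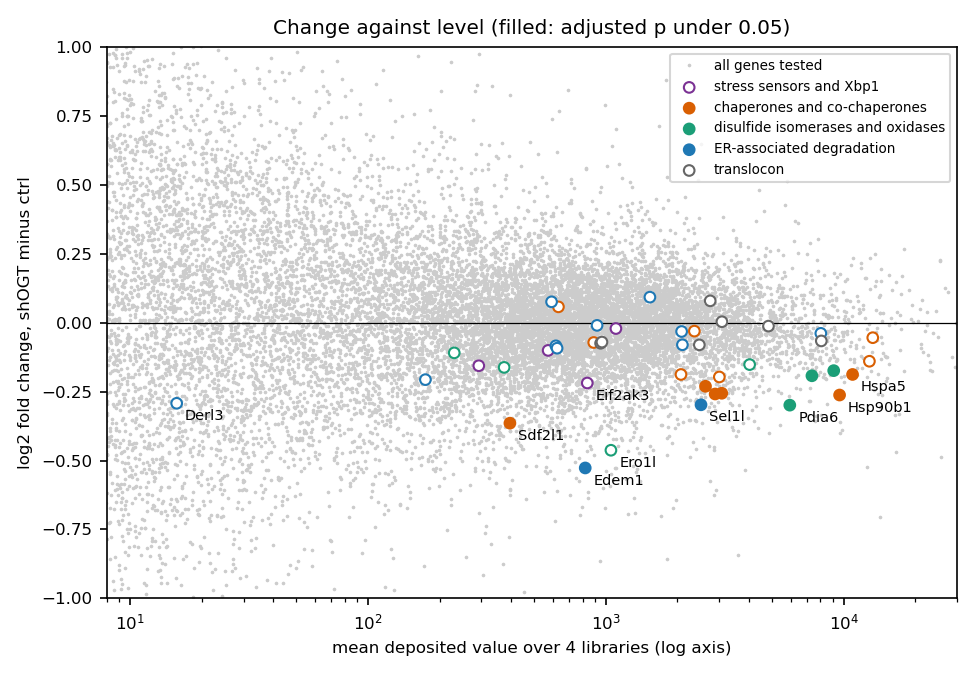
Log2 fold change, shOGT minus ctrl (y axis), against the mean deposited value over the 4 libraries (x axis, log scale) for all genes tested (small grey dots) and the 43 ER genes (circles, coloured by function; filled where called lower). The axes leave out genes beyond a log2 fold change of 1 or a mean outside the range shown; 9 of the 11 filled circles have a mean of at least 1000, and the open circles include Ero1l at -0.46.

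Other genes of the pathway were read from 6 lists that hold none of the 43, 171 genes tested in all. Of these, 17 (9.94%) were lower and 4 (2.34%) higher, with a median log2 fold change of -0.04. Over all genes tested the shares were 2.9% and 1.96%. Among genes with a mean of at least 1000, as 100 of the 171 had, 8.56% were lower. Most of the lower genes were folding factors. Of 40 other folding factors and isomerases, 9 (22.5%) were lower and 0 higher (20 lower and 2 higher at an unadjusted p under 0.05). Their median was -0.14. The 6 with the smallest p included calcium-binding proteins of the secretory route, Calu (9432 and 9252 in ctrl and 7429 and 7810.0 in shOGT; log2 fold change -0.29, adjusted p 0.00347) and Sdf4 (3025 and 3032 in ctrl and 2545 and 2568 in shOGT; -0.24, adjusted p 0.0115). The prolyl isomerase gene Fkbp9 was at 3345 and 3392 in ctrl and 2749 and 2911 in shOGT (-0.25, adjusted p 0.014). Cnpy4, of the Canopy family, was at 641 and 643 in ctrl and 482 and 495 in shOGT (-0.39, adjusted p 0.0126). Prdx4, a peroxidase that feeds oxidising power to disulfide isomerases, was at 1174 and 1114 in ctrl and 931 and 881 in shOGT (-0.34, adjusted p 0.0145). Txndc12, a thioredoxin-like protein, was at 1495 and 1479 in ctrl and 1226 and 1274 in shOGT (-0.25, adjusted p 0.0248). In all 6 both shOGT values lay below both ctrl values, an order that choosing genes by smallest p favours.

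Of 30 other genes of stress signalling, 3 (10%) were lower and 1 (3.33%) higher. Their median log2 fold change was 0.005, and its sign turned in 3 of the 4 sets that leave out 1 library. Wfs1, which encodes wolframin, an ER membrane protein, was at 336 and 327 in ctrl and 228 and 232 in shOGT (-0.53, adjusted p 0.013). Nfyb, a subunit of the factor NF-Y that binds the CCAAT end of the ERSE, was at 733 and 679 in ctrl and 574 and 556 in shOGT (-0.32, adjusted p 0.0324). The other NF-Y subunits, Nfya and Nfyc, were not called (0.05 and 0.02, adjusted p 0.735 and 0.924). Mbtps2, the site-2 protease that releases ATF6, was at 733 and 766 in ctrl and 618 and 629 in shOGT (-0.27, adjusted p 0.0473). The gene that rose was Rtcb, the ligase that joins the Xbp1 exons after IRE1 has cut them, at 3053 and 3026 in ctrl and 3559 and 3436 in shOGT (0.20, adjusted p 0.0248).

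In the other 4 lists few genes were called, where 2.9% of all genes tested were lower and 1.96% higher. Of 29 other degradation genes 1 (3.45%) was lower, near the share over all genes. This was Erlin1 (-0.27, adjusted p 0.0356), which encodes a membrane scaffold for the degradation of calcium channels. Of 21 other targeting and translocation genes 1 (4.76%) was lower. This was Bcap31 (1726 and 1806 in ctrl and 1256 and 1335 in shOGT; -0.45, adjusted p 0.0031), which encodes a sorting chaperone of the ER membrane. Of 24 genes of N-glycosylation and glucose trimming, 3 (12.5%) were lower and 1 (4.17%) higher. Mcfd2, a cargo receptor subunit, and Magt1 and Rpn2, subunits of the oligosaccharyltransferase, had log2 fold changes of -0.41, -0.33 and -0.16 (adjusted p 0.00672, 0.0131 and 0.0499), while the mannosyltransferase gene Alg2 rose (0.29, adjusted p 0.0237). At an unadjusted p under 0.05, 2 of 27 genes of ER export, calcium and ER-phagy were lower and 8 higher, with a median of 0.06. After adjustment 0 were lower and 2 (7.41%) higher. The 2 were Itpr1, the calcium release channel, at 442 and 509.9 in ctrl and 658 and 649 in shOGT (0.46, adjusted p 0.0148), and Atl3, an ER-shaping GTPase and ER-phagy receptor, at 1563 and 1549 in ctrl and 1809.6 and 1851 in shOGT (0.23, adjusted p 0.0236).

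**Figure D4:**
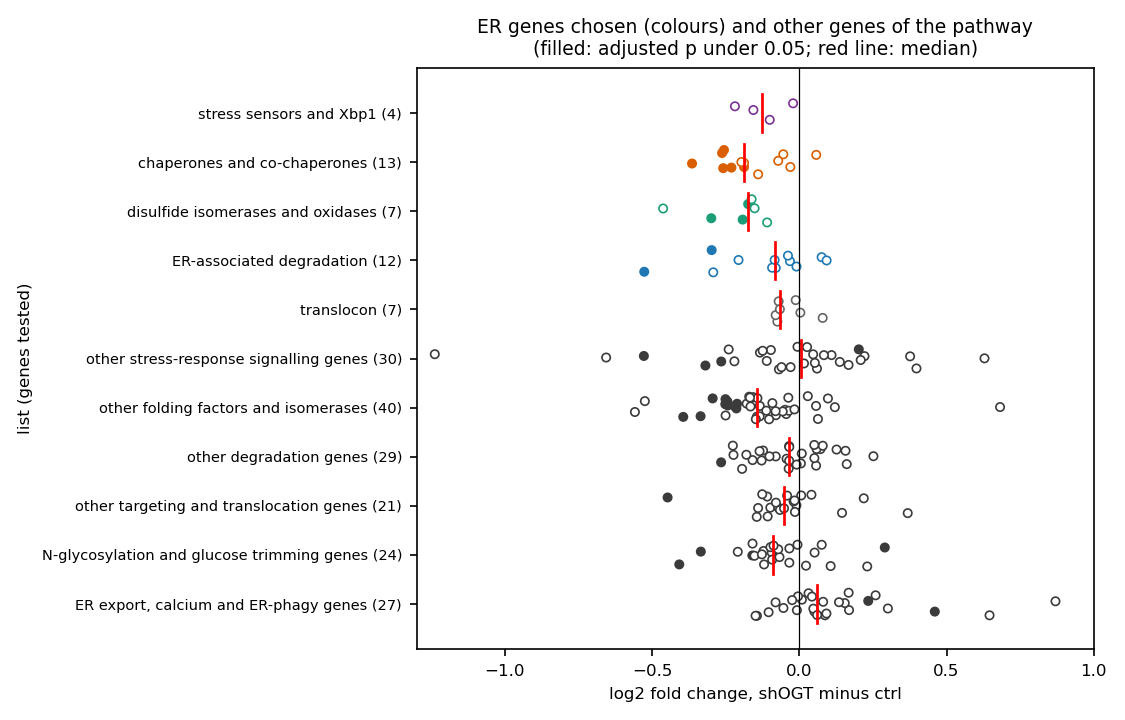
Log2 fold change, shOGT minus ctrl (x axis), of every tested gene in the 5 groups of the 43 ER genes and in the 6 lists of other pathway genes (y axis, number of genes tested in parentheses); filled circles were called by limma and red lines are medians. Chaperones, disulfide isomerases and other folding factors have medians of -0.19, -0.17 and -0.14, while the median of ER export, calcium and ER-phagy genes is 0.06.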

How the data were processed

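RNA of 2 ctrl and 2 shOGT libraries was sequenced, and groups and replicate numbers came from the sample titles. The authors deposited, for 25261 Ensembl identifiers, a signal in each library. The submitters' processing notes name the build mm10. Aligner, annotation, normalization and use of strand were not given in the sources used here. Each deposited signal was a whole multiple (within 0.01) of 1 step per library, 0.943 to 1.06, from which reads were implied. GENCODE M21 gave symbols and positions for 25250 identifiers; 11 did not match. Replicates were checked with a chi-square per gene over genes with at least 20 implied reads: 2.02 in ctrl, 3.33 in shOGT and 7.38 to 8.13 between groups.

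A gene entered the test when 2 or more libraries had a value of 1 or more (21829 genes). Testing was done with limma 3.58.1 in R 4.3.3 on log2(value + 1), with a variance trend, 2-sided, adjusted by Benjamini-Hochberg over all genes and called at an adjusted p under 0.05. The log2(value + 1) scale understates changes of low genes. Intervals are 95% and come from the same fit. Alternatives changed scaling, pseudocount, filter, variance trend, replicate block and libraries. Every ER gene is named; of the other pathway lists the called genes are, at most 6 in each direction by smallest p. The ER genes, lists and settings were chosen with earlier results of these data known. Of the listed pathway genes 1 of 172 was not used here. Promoter windows came from RefSeq, GRCm38.p6. A listed marker is not reported here.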

Additional observations from a re-analysis of the deposited data

How the results depend on the processing

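With 2 libraries a group the number of calls depended on the settings of the test. The 11 ER genes called lower numbered 11 with equal totals and with a pseudocount of 0.5 or 5. The count was 0 with quantile normalization, with no filter and with no variance trend, settings under which 0 of all genes were called higher and 0 lower (3998, 4302 and 2763 genes had an unadjusted p under 0.05). It was 17 with a minimum of 10, where 822 genes were higher and 1133 lower. Leaving out each library gave 0 to 0 ER genes, 0 to 0 genes higher and 0 to 0 lower, with 2484 to 3389 at an unadjusted p under 0.05. Deviations of same-numbered libraries from their group means were hardly correlated (0.0132 over 15308 genes). With 1 difference per group this cannot show whether the libraries were prepared in pairs. A replicate block gave 17 ER genes lower, 1007 genes higher and 1295 lower. In settings added after the data were seen, a minimum of 10 gave 12 ER genes with quantile normalization (799 higher, 858 lower) and 15 with equal totals (962 higher, 944 lower). All 11 remained in each of the 7 settings that called any ER gene. Calr, Dnajb11, Eif2ak3, Ero1l, Manf and Pdia4 were the 6 added by the minimum of 10 and by the replicate block. The cause of these changes was not tested. Count-based tests planned on reads recovered from the steps were not run.

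The median of the 43 genes was -0.0927 with equal totals and -0.0929 with quantile normalization, with or without the minimum of 10, and -0.146 to -0.0994 over the sets that leave out 1 library. The median of each of the 5 groups was negative in every setting. The library share of the 43 genes differed by -0.0688 percentage points (shOGT minus ctrl), by -0.0799 without the 100 genes of highest mean, and by -0.0795 to -0.058 without 1 library. Signs turned in genes with small changes, none of them called. Without 1 library the log2 fold change ran from -0.0497 to 0.00722 for Atf6, -0.0705 to 0.00935 for Dnajc3, -0.221 to 0.00188 for Ero1lb, -0.0842 to 0.0647 for Derl2, -0.0455 to 0.0526 for Sec61a1, -0.168 to 0.0276 for Sec61g and -0.0367 to 0.0121 for Ssr1. With quantile normalization, at either minimum, it was 0.00323 for Canx, 0.00238 for Derl2 and 0.0154 for Vcp, and with equal totals 0.00705 for Derl2 and 0.00445 for Ssr1. Depth did not allow a firm value for Derl3, at 13.8 to 18.8 in every library.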

Other observations

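Genes further down the unfolded protein response were read after their values had been seen, and none was called by limma. Ddit3, which encodes the stress factor CHOP, was at 102 and 129 in ctrl and 132 and 116 in shOGT, with overlapping groups (log2 fold change 0.11, adjusted p 0.777). Atf4, the transcription factor translated when PERK is active, was at 2886 and 3101 in ctrl and 2800 and 2795 in shOGT (log2 fold change -0.10, adjusted p 0.298). Ppp1r15a, which encodes GADD34, a phosphatase subunit that reverses the action of PERK, was at 240 and 242 in ctrl and 233 and 207 in shOGT (log2 fold change -0.13, adjusted p 0.544). Trib3, Chac1 and Atf3, all targets of ATF4, were under 31 in every library, too low for these libraries to show a modest difference.

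Outside the 43 ER genes, 11 tested genes had an exact ERSE in their RefSeq window, with a median log2 fold change of 0.18. Of them 0 were called in either direction, but 11 genes are too few to show a lower share than that over all genes. Of the 11, 6 were under 100 in every library, a limit set after the values had been seen. Among the other 5 were Hnrnpa3, at 3444 and 3403 in ctrl and 3613 and 3393 in shOGT (log2 fold change 0.03, adjusted p 0.755), and Alg12, at 204 and 218 in ctrl and 229 and 236 in shOGT (0.14, adjusted p 0.527). Of 127 tested genes outside the 43 with a UPRE in the window, 6 were lower and 2 higher, with a median of 0.02. Over all genes tested, 2.9% were lower and 1.96% higher, with a median of 0.001. Whether the UPRE genes differ from this was not tested.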
